A study of Mus musculus with 12 samples.

Results

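The GDNF family of ligands and receptors was examined in RNA from sorted neurons of the spiral ganglion, the relay from the hair cells of the cochlea to the brainstem. The members were taken by gene symbol: the receptor gene Ret, the co-receptor genes Gfra1, Gfra2, Gfra3 and Gfra4, and the ligand genes Gdnf, Nrtn and Artn. All 8 had a row among the 25674 genes of the count table. The samples came from mouse embryos at E14.5, with 100 tdTomato-positive cells per sample and the spiral ganglia of 1 embryo in each. The 6 control embryos had the genotype Neurod1Cre; Rosa26tdTOM and the 6 ISL1CKO embryos had the genotype Neurod1Cre;Isl1loxP/loxP;Rosa26tdTOM, so both groups carried the Cre and the reporter and only the second carried the floxed Isl1 alleles. Cre came from a Neurod1-cre BAC transgene, which acts wherever Neurod1 is expressed and not in the ear alone. Embryos were of either sex, on a mixed C57BL/6/sv129 background, and the labels do not tie a sample to a litter. The labels call the replicates technical in one place and biological in another, so the p-values measure only the spread between these samples. The question was how these genes differ when the gene for the LIM homeodomain transcription factor ISL1 is targeted in the neurons.

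RET is a receptor tyrosine kinase that does not bind its ligands alone. A ligand dimer first engages a GFRA co-receptor, which is tethered to the membrane by a lipid anchor, and the pair then recruits and activates RET. GDNF prefers GFRA1, neurturin (Nrtn) prefers GFRA2, artemin (Artn) prefers GFRA3 and persephin (Pspn) prefers GFRA4. The system is best known for survival, migration and target innervation of enteric, autonomic and some sensory neurons.

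The libraries held 11895603 to 13857480 counts, and levels are given as CPM, the count relative to the library total after TMM scaling. Values at or under 3 counts, which is 0.219 to 0.250 CPM, are treated as not separable from 0 for counting error. Isl1, the targeted gene, ran from 1050 to 1589 CPM in the libraries labelled ISL1CKO and from 1171 to 1777 CPM in the controls, which is a difference of -0.15 ± 0.11 (SE) in log2 (edgeR adjusted p = 0.460). A count summed over all exons does not tell whether the floxed segment was lost, so each direction below is that of libraries by their labels. The general markers of neurons and of otic neurons were present in every library, at a summed 14479 to 17008 CPM in the libraries labelled ISL1CKO and 17783 to 20399 CPM in controls. Of these 17 genes, only Neurog1 lay at or under 3 counts in some libraries. 3 libraries labelled ISL1CKO, those numbered 2, 3 and 5, held both Xist and Y-linked transcripts. In these, Xist was at 62.9, 77.8 and 132 CPM beside Y-linked means of 61.0, 87.3 and 35.7 CPM, although each sample is described as 1 embryo. The library of control 3 also stood apart. It held 40.0 CPM of Prrxl1, a homeobox gene of somatosensory neurons, against at most 0.159 CPM in any other control, and 224 CPM of Prph, which encodes the neuronal intermediate filament peripherin, against 10.5 to 27.9 CPM. These genes were chosen after their values were seen. Values without these libraries are given for each member or pathway gene whose call depended on them.

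Of the 8 genes, 6 passed the filter on low counts and were tested, and 1 of them, Nrtn, was called, as higher in the libraries labelled ISL1CKO. Over all 14813 genes tested, 10.2% had an adjusted p under 0.05, with 5.01% higher and 5.19% lower, so 1 call among 6 genes is near the background share. Unadjusted p under 0.05 was reached by 3 of the 6, Ret, Gfra1 and Nrtn, where 23.3% of all genes reached it. Gdnf and Artn were not tested because of their low counts. In bulk RNA, fewer cells that express a gene and less RNA per cell cannot be told apart.

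Nrtn (ENSMUSG00000039481, GRCm38 chromosome 17, 56751325 to 56757530, minus strand) encodes neurturin and was the only member called. Its upstream sequence is shown for that reason. The 250 bases before the RefSeq start site lie at chr17:56757549-56757798 on the minus strand of GRCm38.p6 and overlap no exon of Nrtn in GENCODE M21. Capitals mark E-boxes, the letters CANNTG, which reads alike on both strands and is the core bound by basic helix-loop-helix proteins such as NEUROD1.

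Nrtn upstream: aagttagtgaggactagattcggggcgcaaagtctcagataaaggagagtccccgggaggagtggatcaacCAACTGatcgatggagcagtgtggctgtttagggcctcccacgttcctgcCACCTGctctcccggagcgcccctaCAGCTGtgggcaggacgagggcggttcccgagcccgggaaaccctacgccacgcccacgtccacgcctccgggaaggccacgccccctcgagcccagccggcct

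The stretch holds 3 E-boxes, and 66.2% of all 250-base upstream stretches in the RefSeq promoter table hold at least 1. The sequence CTAATG, which ISL1 can bind, was searched on both strands in the 300-base promoters, from 250 bases before the start to 50 after it. It was absent from the Nrtn window. Among 7 RefSeq promoters found for 5 of the members (Gfra1, Gfra4, Gdnf, Nrtn and Artn), it was present in 1, that of a Gdnf start, where 7.36% of all 32851 promoters in the table hold it. That match begins 100 bases before the start, inside chr15:7809936-7809965 on the plus strand, and is in capitals in the next line.

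Gdnf upstream: ctggggactaaaCTAATGtgtgtttaggtc

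A match is a description of letters and not of binding.

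In ISL1CKO replicates 1 to 6, Nrtn had 50, 45, 13, 22, 50 and 39 counts, or 3.96, 3.49, 0.979, 1.64, 3.65 and 2.97 CPM. In control replicates 1 to 6 it had 0, 2, 3, 12, 0 and 5 counts, or 0, 0.148, 0.250, 0.889, 0 and 0.366 CPM. Every library labelled ISL1CKO lay above every control, which was so for 3.13% of all genes tested, although the lowest of the former (replicate 3) and the highest of the latter (replicate 4) nearly met. The means were 2.78 ± 1.20 and 0.276 ± 0.333 CPM (SD, n = 6). The log2 fold change of 3.28 ± 0.78 (SE) is a 9.69-fold difference with a 95% interval of 3.06 to 30.7 (edgeR adjusted p = 0.0136). The whole signal rests on 219 counts in one group and 22 in the other. The interval comes from the fit over libraries, so it holds their spread as well as counting error. Without ISL1CKO 2, 3 and 5 the log2 fold change was 3.31 and the call was lost (edgeR adjusted p = 0.0982). Without control 3 it was 3.24 (edgeR adjusted p = 0.0318). The protein-coding genes on either side, Ndufa11 and Dus3l, differed by -0.22 and -0.0645 in log2, neither past the threshold (edgeR adjusted p of 0.200 for the first, 0.867 for the second).

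Markers of other cell types were read beside this difference. Mesenchyme markers (12 of 12 in the table) summed to 89.9 to 194 CPM in the libraries labelled ISL1CKO and 39.8 to 99.9 CPM in controls (exact 2-sided permutation p = 0.0108, adjusted p = 0.0244 over 9 lists, on mean log2 levels). Within that list Tbx18, a T-box factor, was at 39.5 against 1.09 CPM. Also higher on average were Postn at 27.2 against 9.93 CPM, Col3a1 at 14.1 against 2.66, Prrx1 at 4.72 against 0.337 and Col1a2 at 4.67 against 1.30. In contrast, the most abundant control member, Pou3f4, was at 27.4 against 52.9 CPM and Twist1 at 0.0129 against 1.13 CPM. Among the remaining members, all at low levels, Col1a1, Pdgfra and Dcn had higher means and Lum and Tbx15 lower ones. With a pseudocount of 0.1 in place of 1, added after the data were seen, the list missed the threshold (exact permutation, adjusted p = 0.0877). Otic epithelium markers (10 of 10) summed to 15.9 to 53.3 and 10.9 to 28.6 CPM (exact permutation p = 0.00433, adjusted p = 0.0195), with Oc90 and Cldn6 at or under 3 counts in 10 and 11 of the 12 libraries. The part of either list in the Nrtn difference was not tested. With the level of Schwann cell markers as a covariate the Nrtn log2 fold change was 3.05 (edgeR adjusted p = 0.0284), and with that of macrophage markers it was 3.38 (edgeR adjusted p = 0.0191). Neither of these lists differed past the threshold between groups (exact permutation, adjusted p = 0.363 for each). These fits do not address the mesenchyme or otic epithelium lists.

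The other ligand genes were at the limit of detection. Gdnf (ENSMUSG00000022144, chromosome 15, 7810846 to 7837575, plus strand), which encodes the founding ligand of the family, exceeded 3 counts in 2 libraries, with 17 counts in control 2 and 8 in ISL1CKO 4. In 8 of the other 10 libraries it was at 0. Artn (ENSMUSG00000028539, chromosome 4, 117926162 to 117929763, minus strand), which encodes artemin, exceeded 3 counts in 4 libraries. These were control 3 with 16 counts, and control 2, ISL1CKO 1 and ISL1CKO 5 with 4 each. Pspn, the ligand gene outside the member list, had at most 15 counts in any library and was not tested either. Fitted without the filter, the log2 fold changes were -1.24 for Gdnf, -1.41 for Artn and 0.0606 for Pspn, none past the threshold (edgeR adjusted p of 0.721, 0.602 and 0.989 in that order). The 95% intervals were wide, from -4.22 to 1.73, from -3.94 to 1.12 and from -1.78 to 1.90.

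**Figure D1:**
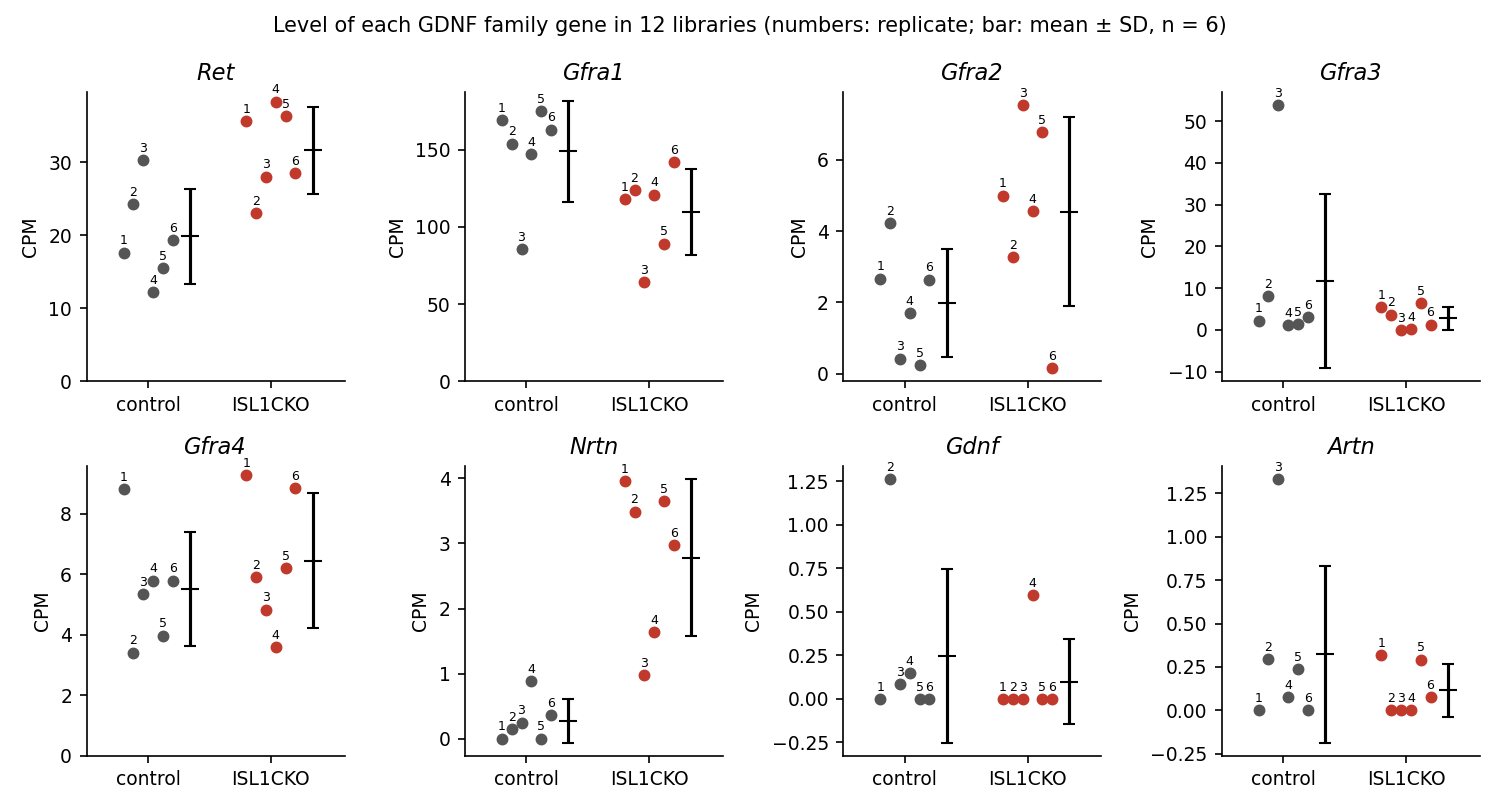
Level in CPM (vertical axis, linear) of each of the 8 genes in the 6 control and 6 ISL1CKO libraries; each point is a library with its replicate number, and the bar is the mean ± SD. The groups do not overlap for Nrtn, while control 3 lies apart at 53.8 CPM for Gfra3 and at 85.8 CPM for Gfra1.

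Ret (ENSMUSG00000030110, chromosome 6, 118151745 to 118197718, minus strand), the signalling receptor shared by all the ligands, was at 35.6, 23.0, 28.0, 38.3, 36.3 and 28.5 CPM in ISL1CKO replicates 1 to 6. In control replicates 1 to 6 it was at 17.6, 24.3, 30.3, 12.2, 15.5 and 19.3 CPM. All 6 of the former lay above the control median of 18.4 CPM and 3 lay above every control, but the groups overlapped through controls 2 and 3. Group means were 31.6 ± 6.00 and 19.8 ± 6.50 CPM (SD, n = 6). The fold of 1.59 had a 95% interval of 1.16 to 2.19, and its log2 value of 0.67 ± 0.22 (SE) missed the threshold (edgeR adjusted p = 0.0629, unadjusted 0.00712). Without control 3, the highest control, the log2 fold change was 0.83 and was past the threshold (edgeR adjusted p = 0.0175). Without ISL1CKO 2, 3 and 5 it was 0.78 (edgeR adjusted p = 0.144). The DESeq2 Wald test and limma-voom with sample weights also called Ret, with adjusted p of 0.0239 and 0.0155. Under the alternatives run, the log2 fold change stayed between 0.56 and 0.83.

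Gfra1 (ENSMUSG00000025089, chromosome 19, 58235604 to 58455909, minus strand), the co-receptor gene for GDNF, was the most abundant member, also per kilobase of exon. It was at 118, 124, 64.4, 121, 89.1 and 142 CPM in ISL1CKO replicates 1 to 6 and at 169, 154, 85.8, 147, 175 and 163 CPM in control replicates 1 to 6. All controls except replicate 3 lay above every library labelled ISL1CKO. Group means were 110.0 ± 28.1 and 149 ± 32.5 CPM (SD, n = 6). The log2 fold change of -0.44 ± 0.19 (SE) missed the threshold (edgeR adjusted p = 0.179, unadjusted 0.0370). Without control 3 it was -0.56 and was past the threshold (edgeR adjusted p = 0.0422), and without ISL1CKO 2, 3 and 5 it was -0.23 (edgeR adjusted p = 0.621). In that last setting the lowest values of the group, those of ISL1CKO 3 and 5, are left out. Exons of Gfra1 overlap Gm16277 on the opposite strand, and the use of strand in counting is not given in the sources used here, so a share of these counts is uncertain.

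Gfra2 (ENSMUSG00000022103, chromosome 14, 70890120 to 70979838, plus strand), the co-receptor gene for neurturin, was low in all libraries. It was at 4.99, 3.26, 7.53, 4.56, 6.78 and 0.152 CPM in ISL1CKO replicates 1 to 6 and at 2.66, 4.22, 0.417, 1.70, 0.238 and 2.64 CPM in the controls. Of the former, 4 lay above every control. ISL1CKO 6 with 2 counts and control 5 with 3 counts were both at levels treated as not separable from 0. In log2 the difference was 1.19 ± 0.73 (SE; edgeR adjusted p = 0.358). Its 95% interval for the fold, 0.777 to 6.74, spans both no difference and a several-fold rise. Without ISL1CKO 2, 3 and 5 the log2 difference was 0.69 (edgeR adjusted p = 0.793).

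Gfra3 (ENSMUSG00000024366, chromosome 18, 34689898 to 34720387, minus strand), the co-receptor gene for artemin, was dominated by 1 library. Control 3 held 645 counts, or 53.8 CPM, and the other 5 controls 1.19 to 8.14 CPM. The libraries labelled ISL1CKO ran from 0 in replicate 3 to 6.35 CPM in replicate 5. The log2 fold change of -2.05 ± 1.10 (SE; edgeR adjusted p = 0.285) became -0.20 without control 3 (edgeR adjusted p = 0.934). Schwann cell markers, which mark the glia of the ganglion, were low in control 3 at a summed 39.5 CPM, where the 12 libraries ran from 33.2 to 517 CPM. In that library Erbb3 was at 0 and Sox10 at 0.167 CPM. Genes of other sensory neurons were high there: besides Prrxl1 and Prph, Gal was at 73.7 CPM against at most 5.33 in the other controls, Calca at 7.59 against 1.10, and Prdm12 at 5.84 against 0.659. These encode galanin, the calcitonin gene-related peptide and a regulator of nociceptor development. Artn was highest in the same library at 1.33 CPM. The part of such RNA in the Gfra3 value was not tested.

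Gfra4 (ENSMUSG00000027316, chromosome 2, 131039632 to 131043088, minus strand), the co-receptor gene for persephin, gave 3.58 to 9.27 CPM in the libraries labelled ISL1CKO (median 6.05) and 3.40 to 8.81 CPM in controls (median 5.56). The ranges nearly coincided. Its fold was 0.22 ± 0.32 in log2 (SE; edgeR adjusted p = 0.732), with a 95% interval of 0.724 to 1.88 for the fold.

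**Figure D2:**
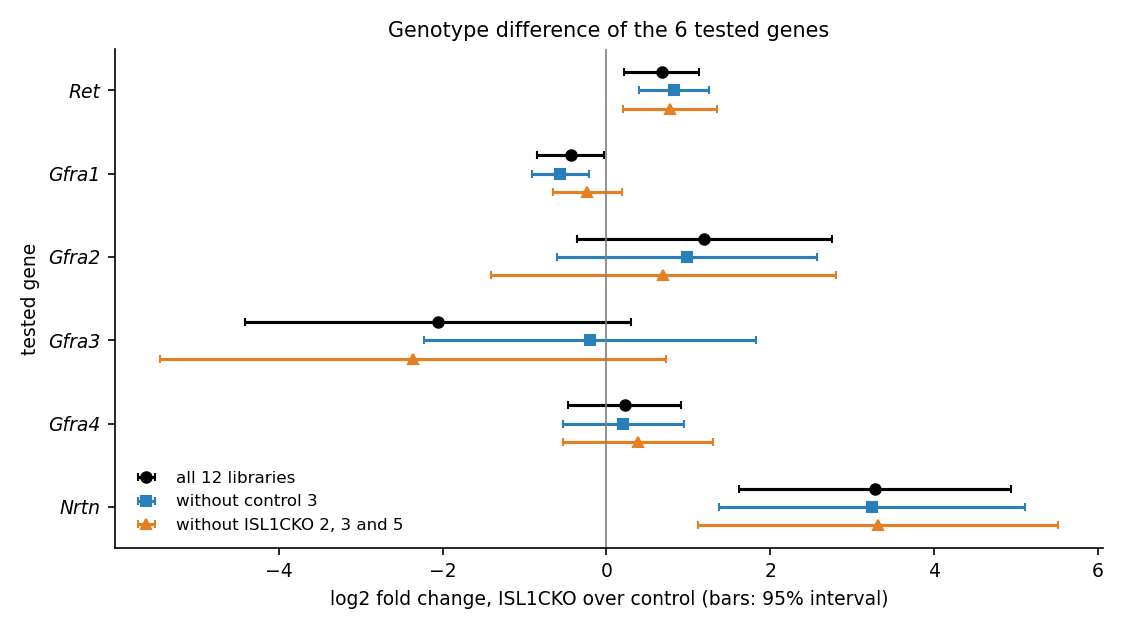
The log2 fold change of libraries labelled ISL1CKO over controls (horizontal axis) for the 6 tested genes, with 95% intervals as bars, from all 12 libraries, without control 3, and without ISL1CKO 2, 3 and 5. Gfra3 moves from -2.05 to -0.20 when control 3 is left out, and the estimate for Nrtn stays between 3.24 and 3.31.

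Levels were compared between genes after division by exon length from GENCODE M21, as CPM per kilobase. In controls Gfra1 came first at 27.2 ± 5.93 and Gfra3 next at 5.82 ± 10.4 through control 3. Ret followed at 2.93 ± 0.961, Gfra4 at 2.55 ± 0.873, Gfra2 at 0.559 ± 0.428 and Nrtn at 0.269 ± 0.325 (SD, n = 6). In the libraries labelled ISL1CKO the order was Gfra1 at 20.1 ± 5.13, Ret at 4.67 ± 0.887, Gfra4 at 2.97 ± 1.03, Nrtn at 2.72 ± 1.18, Gfra3 at 1.40 ± 1.37 and Gfra2 at 1.28 ± 0.748 (SD, n = 6). Artn and Gdnf were last in both groups, at no more than 0.135 on average. In both groups the range of Gfra1 lay above that of Ret, whereas the ranges of Ret and Gfra4 overlapped. Nrtn was at rank 6 of the 8 in controls and at rank 4 in the other group, where its range overlapped those of Ret, Gfra4, Gfra3 and Gfra2.

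Within the summed co-receptor level per kilobase, Gfra1 made up 77.6% ± 8.08 in the libraries labelled ISL1CKO and 77.5% ± 21.4 in controls (SD, n = 6). In control 3 its share was 34.7% and that of Gfra3 59.6%. Without that library the control share of Gfra1 was 86.1% ± 4.47 (SD, n = 5). In ISL1CKO 1, 4 and 6 it was 81.5% ± 8.39 (SD, n = 3), beside 3.32% ± 2.76 for Gfra2 and 11.4% ± 4.19 for Gfra4. The share of Gfra2 was 5.72% ± 4.46 against 1.61% ± 1.23, and that of Gfra4 11.6% ± 2.96 against 7.12% ± 2.50 (SD, n = 6), with overlapping ranges for both. The ratio of Ret to the summed co-receptors was 0.121 to 0.257 in the libraries labelled ISL1CKO and 0.0590 to 0.103 in controls. Those ranges did not overlap. Control 3 was at 0.0991 with 59.6% of its co-receptor sum from Gfra3. Its Ret level of 30.3 CPM lay inside the range of the libraries labelled ISL1CKO, 23.0 to 38.3 CPM. The ratio of Ret to Gfra1 alone was 0.150 to 0.352 against 0.0672 to 0.128 in 5 controls, with 0.286 in control 3. These shares and ratios combine members and are descriptions without a test.

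**Figure D3:**
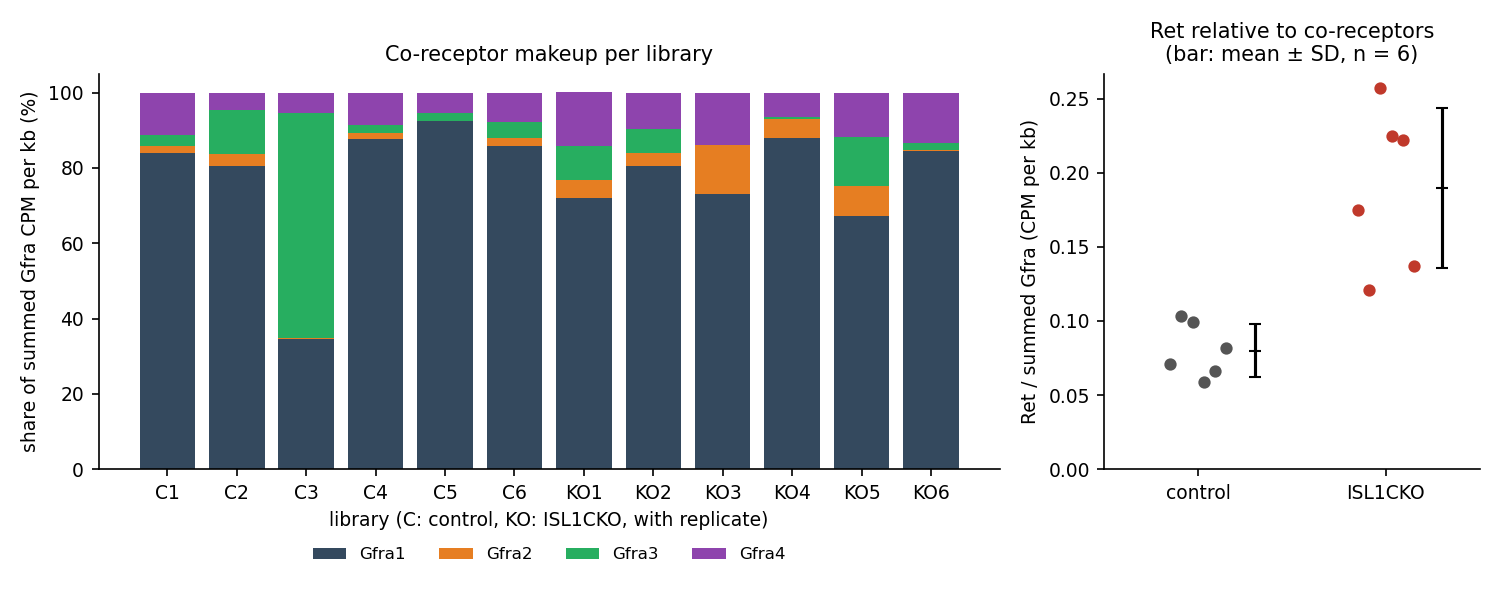
Left, share in percent of each Gfra gene in the summed co-receptor level (CPM per kilobase) in each library. Right, Ret divided by that sum, with a point per library and the mean ± SD; control 3 differs in makeup, with 59.6% from Gfra3, and the ratios run from 0.0590 to 0.103 in controls and 0.121 to 0.257 in the other group.

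The genes whose levels followed Ret and Gfra1 most closely were ranked by Pearson's r of log2(CPM + 1) over the 12 libraries, among 9860 genes, as a description of libraries that share genotype and depth. For Ret they were Mettl15 (0.890), Hrk (0.874) and Rab11fip2 (0.861). Hrk, which encodes a pro-apoptotic BCL2-family protein, was itself called, at 25.3 CPM in the libraries labelled ISL1CKO and 4.74 CPM in controls (edgeR adjusted p = 0.00198). For Gfra1 they were Chrnb2 (0.931), a nicotinic acetylcholine receptor subunit gene, Slc7a6 (0.927) and Abca3 (0.926). With the group means subtracted, Chrnb2 stayed among the first 3 for Gfra1 at 0.906, after Tmem198 (0.927) and Osgin2 (0.910). For Ret, different genes came first, namely Erc1 (0.903), Gramd4 (0.878) and Rnf19b (0.868).

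The wider pathway was read from 4 lists with 85 genes, of which 63 were tested. Lower in the libraries labelled ISL1CKO were 12 and higher were 4, or 25.4% of those tested, where 10.2% of all genes were called. Their median log2 fold change was -0.24, against 0.0045 over all genes. The lists were chosen with earlier results of these data known, so neither value is a test of the pathway. By list, the share called ran from 15.6% for adaptors and kinases to 50.0% for transcription factors. Without ISL1CKO 2, 3 and 5, 8 of the same 16 calls were kept, those of Etv1, Etv5, Cxcr4, Mapk3, Ncam1, Gata3, Runx1 and Isl2. The other 8 kept their direction but missed the threshold there, and their edgeR adjusted p was 0.0569 for Zeb2, 0.0601 for Crk, 0.0784 for Etv4, 0.0814 for Dok5, 0.138 for Stat3, 0.193 for Shc2, 0.310 for Spred2 and 0.609 for Tbx3.

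Among other receptors and ligands, Ncam1 rose. It encodes the neural cell adhesion molecule, an alternative receptor for GDNF with GFRA1, and went from 1463 ± 167 CPM in controls to 2018 ± 202 CPM (SD, n = 6; log2 fold change 0.46, edgeR adjusted p = 0.00217). Every library labelled ISL1CKO lay above every control, as for 3.13% of all genes tested. Ncam1 was the 1 gene called of 3 tested in its list of 6. Sorl1, which encodes a sorting receptor that binds GDNF, had a log2 fold change of -1.52 and missed the threshold (edgeR adjusted p = 0.255).

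Of 35 adaptor and kinase genes that relay RET signals, 32 were tested, 4 fell and 1 rose, with a median log2 fold change of -0.071. The share called was 15.6%, beside 10.2% of all genes. Mapk3, which encodes the MAP kinase ERK1, fell most clearly, from 194 ± 7.46 to 108 ± 20.9 CPM (SD, n = 6; log2 fold change -0.84, edgeR adjusted p = 1.90e-04). The adaptor genes Crk and Shc2 fell by 0.45 and by 0.39 in log2 (edgeR adjusted p of 0.00377 for Crk, 0.0281 for Shc2). Stat3, a transcription factor activated by several receptor kinases, fell by 0.54 (edgeR adjusted p = 0.0302). Leaving out ISL1CKO 1, 2 or 5 or control 1 ended the Shc2 call (edgeR adjusted p of 0.0518, 0.0550, 0.0661 and 0.0638), and leaving out ISL1CKO 5 or control 2 or 4 ended that of Stat3 (0.0569, 0.0557 and 0.0612). Dok5, which encodes a docking protein that binds RET, rose from 36.0 ± 13.1 to 82.7 ± 49.4 CPM (SD, n = 6; log2 fold change 1.20, edgeR adjusted p = 0.0219). The groups overlapped for Dok5, and without ISL1CKO 3, the highest library at 183 CPM, its log2 fold change was 0.80. Leaving out control 2, 3, 5 or 6 ended the call (edgeR adjusted p of 0.0505, 0.0510, 0.0533 and 0.0510).

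The list of response and feedback genes held 23 genes, of which 18 were tested. 5 fell and 0 rose, or 27.8% of those tested, where 10.2% of all genes were called and 5.19% were called lower. The median log2 fold change was -0.90. At an unadjusted p under 0.05, edgeR gave 9 lower and 0 higher, as did DESeq2, whereas limma-voom gave 10 lower and 3 higher (Cbl, Cblb and Mmp14). In edgeR, 23.3% of all genes reached that unadjusted p in either direction. After adjustment DESeq2 and limma-voom called 8 and 6 lower and 0 higher, where they called 2100 and 1772 genes in all. The ETS factor genes Etv1, Etv4 and Etv5, which respond to RET and also to FGF receptors, all fell. Etv5 went from 127 ± 25.8 to 48.1 ± 14.7 CPM (log2 fold change -1.41, edgeR adjusted p = 2.00e-04), Etv1 from 29.8 ± 4.85 to 8.09 ± 4.14 CPM (-1.88, edgeR adjusted p = 6.20e-04) and Etv4 from 67.3 ± 18.0 to 14.0 ± 14.1 CPM (-2.27, edgeR adjusted p = 0.0131) (SD, n = 6). Cxcr4, a chemokine receptor gene, had the largest fall of the list, from 28.0 ± 13.0 to 1.91 ± 1.05 CPM (SD, n = 6; log2 fold change -3.86, edgeR adjusted p = 6.46e-05). Spred2, an inhibitor of RAS signalling, fell by 1.10 (edgeR adjusted p = 0.0397), a call that was kept only without ISL1CKO 1 or control 1 among the 12 fits that each left out 1 library. Over those fits its edgeR adjusted p ran from 0.00499 to 0.0835. The Sprouty genes Spry1 and Spry2 and the phosphatase gene Dusp6, feedback inhibitors of the same cascade, were at -1.83, -1.09 and -0.90 in log2. They missed the threshold, with Spry2 nearest to it (edgeR adjusted p = 0.0605). The fall was not shared by all genes of these families in the list. Spred3 was at -0.99, Spry4 at -0.49, Spred1 at -0.22 and Dusp4 at 0.0564. None of these was past the threshold (edgeR adjusted p of 0.0793, 0.381, 0.588 and 0.914 in that order).

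**Figure D4:**
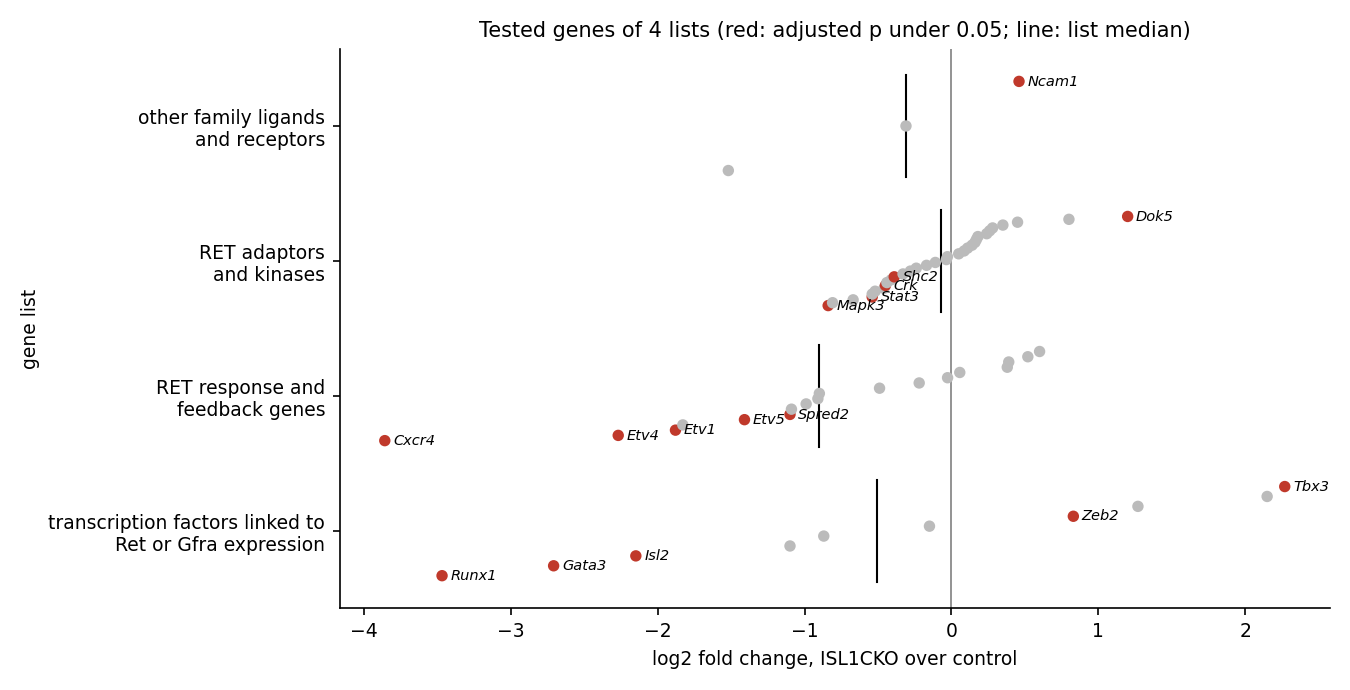
The log2 fold change (horizontal axis) of each tested gene in 4 lists around RET (rows), with genes past the adjusted p of 0.05 in red and named, and the list median as a line. In the response and feedback list all 5 called genes lie to the left, and the median is -0.90.

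Transcription factors linked to Ret or Gfra expression in other tissues moved in both directions. Of 21, 10 were tested, 3 fell and 2 rose, or 50.0% of those tested, where 10.2% of all genes were called. Runx1, which marks nociceptor lineages in dorsal root ganglia, fell from a mean of 54.1 to 4.89 CPM over the 6 libraries of each group (-3.47 in log2, edgeR adjusted p = 9.65e-06). Gata3, needed for spiral ganglion neuron development and for Ret expression in the kidney, went from 1474 ± 257 to 225 ± 174 CPM (SD, n = 6; -2.71, edgeR adjusted p = 0.00961). Isl2, the closest relative of Isl1, went from 285 ± 68.0 to 64.4 ± 16.9 CPM (SD, n = 6; -2.15, edgeR adjusted p = 4.85e-06). Zeb2 rose by 0.83 in log2 (edgeR adjusted p = 0.00455) and Tbx3 by 2.27 (edgeR adjusted p = 0.0379), both with overlapping groups, and Tbx3 had 0.90 without ISL1CKO 2, 3 and 5. The Tbx3 call was also lost without ISL1CKO 2, 3 or 5 singly or control 1, 4, 5 or 6, with edgeR adjusted p of up to 0.0914. Sox10, a glial factor, was at 5.61 ± 5.27 and 2.32 ± 2.96 CPM (SD, n = 6; edgeR adjusted p = 0.529).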

How the data were processed

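The authors deposited whole-number counts per Ensembl gene, with no normalization, for all 12 libraries. Per the submitters' processing notes, cutadapt 1.18, Bowtie 1.2.2, STAR 2.7.0c, featureCounts and the GRCm38.p6 build were used. The use of strand and the annotation release are not given in the sources used here. Each column name gives a genotype and a replicate number, which tied it to 1 sample, and 0 columns were left over. A total of 25627 identifiers were located and named with GENCODE M21 (GRCm38), and upstream sequences are RefSeq's for GRCm38.p6.

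Counts were filtered with filterByExpr (minimum count 10), scaled by TMM and compared with the robust quasi-likelihood test of edgeR 4.0.16 under R 4.3.3, with Benjamini-Hochberg adjustment over all 14813 genes. The standard error is the absolute log2 fold change over the square root of F. The test was checked on simulated data first. The alternatives were other scalings and filters, DESeq2 1.42.0, limma 3.58.1, marker covariates, the replicate number as a block, and leaving out libraries. Marker levels, mean log2(CPM + 1) per library, were compared for 9 lists by exact permutation of the labels.

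The members and lists were chosen with earlier results of these data known. The rule named all members, every called gene of the 4 lists up to 6 per direction, and the 3 genes most like each member that averaged at least 10 CPM. Some list genes were not analysed here.

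The labels' replicate numbers were tested as a pairing. Deviations of libraries with the same number correlated at -0.0564 to 0.155, not all over 0.1, so the comparison is unpaired.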

Additional observations from a re-analysis of the deposited data

Results flagged for a closer look

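Single libraries stood far from the other 5 of their group in 6 of 34 group values checked (8 genes and 9 marker lists in 2 groups). For independent, normally distributed values chance would give about 1.70. The values checked share libraries, and Gdnf was at 0 in most of them, so that number is only a rough guide. Of the 6, 4 came from control 3. Its Gfra1 level was 85.8 CPM, against 147 to 175 CPM in the other controls. Its Gfra3 level was 53.8 CPM, against 1.19 to 8.14 CPM, and its Artn level 1.33 CPM, against 0 to 0.296 CPM. Its mean log2(CPM + 1) over markers of epibranchial or autonomic neurons was 3.45, against 2.10 to 2.52. For Gdnf, control 2 stood apart at 1.26 CPM (17 counts), against 0 to 0.148 CPM in the other controls. ISL1CKO 4 stood apart at 0.597 CPM (8 counts), against 0 in the other 5 libraries of its group.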

How the results depend on the processing

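No member's fold change was reversed under the alternatives run. DESeq2 and limma-voom with sample weights each called 2 members, Nrtn and Ret, with Ret at 0.67 (DESeq2 adjusted p = 0.0239) and 0.82 (limma adjusted p = 0.0155). A filter at a mean of 5 CPM called 0 members, because Nrtn was not tested there. Without ISL1CKO 2, 3 and 5, edgeR called 0 members, 8 list genes and 767 genes in all, fewer samples being compared, and Nrtn was at 3.31 (adjusted p = 0.0982). With the replicate block, 1450 genes and 1 member were called, the member being Gfra1 at -0.45 (edgeR adjusted p = 0.0328), while Nrtn was at 3.63 (edgeR adjusted p = 0.0519); 2 of 6 ISL1CKO libraries correlated best with the control of their own number. Leaving out each library in turn gave 1178 to 1517 calls over all genes, 13 to 19 over the lists and 1 to 3 among members (3 without control 3). The log2 fold change then ran from 3.02 to 4.08 for Nrtn, called in all 12 such fits (adjusted p of 0.00555 to 0.0343), from 0.56 to 0.83 for Ret and from -0.56 to -0.32 for Gfra1. It ran from 0.96 to 1.56 for Gfra2, from -2.48 to -0.20 for Gfra3 and from 0.0865 to 0.40 for Gfra4. The share of Gfra1 among co-receptors in the libraries labelled ISL1CKO was 88.2% without division by exon length, which weights the shorter Gfra3 and Gfra4 less. A pseudocount of 0.1 was added after seeing the data and gave a mesenchyme difference of 0.91 (exact permutation, adjusted p = 0.0877). Gdnf, Artn and Pspn had few counts and were tested only without the filter, and the low control counts of Nrtn limit the precision of its fold.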

Other observations

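Marker lists of the other cell types that a sort could hold were read in the same libraries as mean log2(CPM + 1) (SD, n = 6), with exact 2-sided permutation tests over 9 lists. Hair cell markers were at 2.43 ± 0.160 in the libraries labelled ISL1CKO and 3.12 ± 0.342 in controls (exact p = 0.00649, adjusted p = 0.0195). Ccer2 (3.83 against 36.7 CPM) and Pcp4 (2.06 against 10.8 CPM) were lower, whereas the most abundant member, Myo6, was at 410.0 against 407 CPM, and the summed levels overlapped (336 to 644 and 315 to 623 CPM). Neuron markers were at 8.13 ± 0.311 and 8.89 ± 0.0782 (exact p = 0.00216, the smallest this design allows, adjusted p = 0.0195). Within that list Nefm (881 against 3337 CPM) and Ntrk2 (53.9 against 377 CPM) were lower, while Tubb3 (3940 against 3210.0 CPM), Stmn2 (2760.0 against 1896 CPM) and Neurod1 (2715 against 1471 CPM) had higher means. That list holds Gata3, which is itself among the transcription factors counted above. Macrophage markers (2.77 ± 2.18 and 1.49 ± 1.80, adjusted exact p = 0.363), Schwann cell markers (2.34 ± 1.06 and 1.82 ± 0.713, adjusted exact p = 0.363) and epibranchial or autonomic markers (2.97 ± 0.531 and 2.48 ± 0.507, adjusted exact p = 0.230) missed the threshold. Epibranchial or autonomic markers passed it without control 3, with a difference of 0.68 (adjusted exact p = 0.0390), an alternative chosen after seeing the data. Endothelial (adjusted exact p = 0.256) and erythroid markers (adjusted exact p = 0.476) also missed it, with Cldn5 and Emcn at or under 3 counts in all 12 libraries.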
